A study of Saccharomyces cerevisiae with 12 samples.

Results

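The cytosolic ribosomal protein genes of Saccharomyces cerevisiae were followed across 4 strains that differ in the corepressor gene TUP1 and in mating type. Members were the genes of the count table whose R64 standard name is RPL or RPS followed by digits and an optional A or B, or RPP0, RPP1A, RPP1B, RPP2A or RPP2B. This gave 137 of the 6219 identifiers in the table: 76 proteins of the large subunit, 56 of the small subunit and 5 of the stalk, the flexible arm of the large subunit that recruits translation factors. Of the members, 118 form 59 pairs of A and B copies and 19 are single-copy genes, and all 137 passed the filter on low counts. The genes encode the protein parts of the cytosolic ribosome of budding yeast. Most of these proteins are encoded by a pair of near-identical genes, named A and B, that stem from an ancient duplication of the whole genome. They are among the most strongly transcribed in growing cells. Rap1, together with Fhl1, Ifh1 and Sfp1, drives many of them in response to nutrients and the TOR and protein kinase A pathways, and their RNA falls when growth slows or stress is sensed.

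RNA was measured in log-phase cells of the W303 background (every strain carries ade2-1, ura3-1 and trp1-1, with can1-100, his3-11,15 and a mutant LEU2 allele) grown at 30 °C in rich medium with 2% dextrose to an optical density of 0.6 to 0.8 at 660 nm. The 4 groups were WT MATa and WT MATalpha cells and their tup1(S649F) counterparts of either mating type, with 3 replicates each and 12 libraries in all. Tup1 is a corepressor that works with Cyc8, and S649F is a point mutation of it, which gene counts cannot show. Each group is 1 strain, the labels do not say whether its replicates were separate cultures, and p-values therefore measure the spread among these samples only. Libraries held 5657714 to 9300353 counts, and members had between 150.7 and 34757 counts per library on average.

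A pair of facts about the libraries touches every result. The tup1 MATa replicate 1 stood apart: over the members its chi-square per degree of freedom was 59.6 and 92.5 against the other replicates, which differed from each other by 20.5, while pairs of tup1 MATalpha libraries gave 8.89, 14.7 and, for replicates 2 and 3, 32.6, and pairs of WT libraries gave 2.41 to 5.22. The mating type markers fitted the labels in WT, but in tup1 MATalpha the transcripts of MATa cells were also present: STE2, the receptor for alpha factor, had a mean of 5.47 CPM (counts scaled by TMM to a common library total) in WT MATalpha, 575 in tup1 MATalpha and 613 in WT MATa, and all 5 MATa markers rose in tup1 MATalpha. The part of either in the results on ribosomal protein genes was not tested beyond the counts given without that replicate.

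Many copies differ by few bases, which limits how well reads can be assigned to one of them. Of the 59 pairs, 21 encode identical proteins, but no pair has the same coding sequence. Identity of the coding sequences ran from 70.7% to 99.4%, with a median of 93.2%. In 18 members fewer than 50% of the 50-base windows occur once in the genome; among these are both copies of RPL1, RPL4, RPL7, RPL11, RPL14, RPL35, RPL41 and RPS6. No member overlaps an annotated gene on the other strand. How multiply placed reads were counted is not given in the sources used here, so values of the 18 are uncertain between copies. RPS29, whose copy ratio shifted in both mating types, has 14 differences over its 171 coding bases and RPL15 has 42 over 615, whereas RPL1 has 4 over 654. The stretches are shown 5′ to 3′ on the coding strand of build R64, with the bases that differ between copies in capitals, because reads within these coding sequences can be told apart at these bases. RPS29 is shown whole at chrXII:898651-898821 (plus strand) and chrIV:340628-340798 (minus strand), RPL15 from coding base 397 to 516 at chrXII:202075-202194 (minus strand) and chrXIII:509833-509952 (minus strand), and RPL1 from coding base 1 to 120 at chrXVI:135790-135909 (plus strand) and chrVII:254641-254760 (plus strand).
RPS29A: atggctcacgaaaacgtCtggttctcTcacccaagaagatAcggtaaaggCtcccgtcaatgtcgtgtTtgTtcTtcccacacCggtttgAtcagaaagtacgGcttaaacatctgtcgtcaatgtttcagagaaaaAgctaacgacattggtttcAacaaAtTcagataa
RPS29B: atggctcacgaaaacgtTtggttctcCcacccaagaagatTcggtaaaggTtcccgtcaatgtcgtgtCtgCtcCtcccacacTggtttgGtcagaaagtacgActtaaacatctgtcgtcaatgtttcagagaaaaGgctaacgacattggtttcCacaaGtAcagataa
RPL15A: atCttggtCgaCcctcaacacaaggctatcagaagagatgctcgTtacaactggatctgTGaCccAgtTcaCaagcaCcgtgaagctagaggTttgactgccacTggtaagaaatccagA
RPL15B: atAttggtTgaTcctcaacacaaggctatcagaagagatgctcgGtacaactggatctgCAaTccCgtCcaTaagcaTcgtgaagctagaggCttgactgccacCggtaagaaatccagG
RPL1A: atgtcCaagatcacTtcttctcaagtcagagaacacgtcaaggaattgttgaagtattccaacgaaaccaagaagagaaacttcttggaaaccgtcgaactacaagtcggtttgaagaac
RPL1B: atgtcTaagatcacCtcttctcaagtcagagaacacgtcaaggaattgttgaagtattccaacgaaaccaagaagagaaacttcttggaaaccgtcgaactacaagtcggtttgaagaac

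Rap1 is the general activator of these genes, so the 500 bases before each start codon were searched on both strands for the core of its site, ACCCNNACA, where N is any base. The core was found before 54 of 137 members (39.4%), against 317 of 5766 genes in all (5.50%). A match is a description of the letters and not a bound site. Of the 11 members named below for the largest called falls, 4 hold the core and 7 do not. The 4 are shown with the core in capitals and 50 bases on each side, on the strand of the gene in build R64: RPL36A at chrXIII:650933-651041 (plus strand), RPL8A at chrVIII:36206-36314 (minus strand), RPS24A at chrV:305937-306045 (plus strand) and RPL9A at chrVII:228581-228689 (minus strand). In RPL9A the core lies on the opposite strand. The first capital lies 162, 239, 336 and 310 bases before the start codon in RPL36A, RPL8A, RPS24A and RPL9A.
RPL36A: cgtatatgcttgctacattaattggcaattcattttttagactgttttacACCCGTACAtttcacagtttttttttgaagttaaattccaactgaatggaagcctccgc
RPL8A: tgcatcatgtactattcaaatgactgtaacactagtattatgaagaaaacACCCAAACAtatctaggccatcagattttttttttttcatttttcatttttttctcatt
RPS24A: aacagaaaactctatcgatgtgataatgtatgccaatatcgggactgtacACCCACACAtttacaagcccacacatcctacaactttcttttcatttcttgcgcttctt
RPL9A: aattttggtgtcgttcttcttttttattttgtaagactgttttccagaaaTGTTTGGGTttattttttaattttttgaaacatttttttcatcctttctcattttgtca

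In WT cells the ribosomal protein genes took 12.2, 11.7 and 11.9% of all counts in the MATa libraries and 12.03, 12.20 and 12.08% in the MATalpha libraries. In tup1(S649F) the share was 10.6, 9.19 and 9.97% in MATa and 7.86, 8.58 and 9.24% in MATalpha. Every tup1 library lay below every WT library, and replicate 1 of tup1 MATa was the highest of the tup1 libraries. Both subunits shared in this: the ratio of large-subunit to small-subunit counts stayed between 1.26 and 1.28 in all 12 libraries. The A copies held 50.6 to 52.1% of the counts of the pairs. Counts are shares of a library, so less RNA of these genes per cell and more RNA of other genes cannot be told apart.

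**Figure D1:**
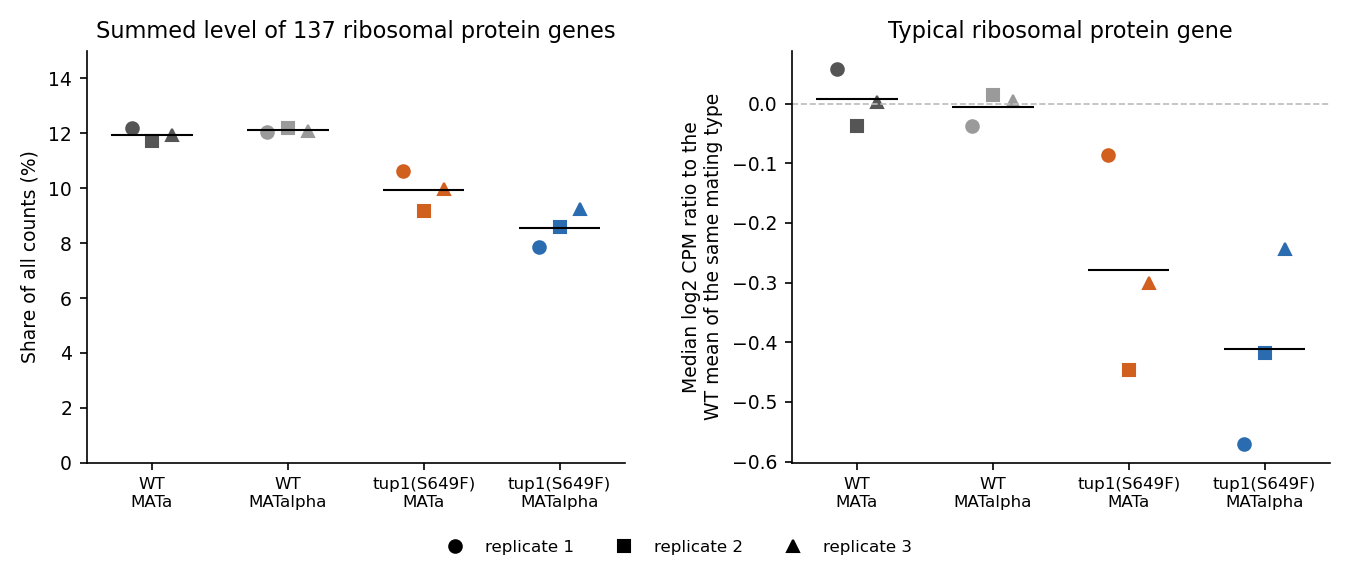
Left, summed counts of the 137 ribosomal protein genes as % of all counts in each of the 12 libraries. Right, the median over the members of the log2 CPM ratio to the mean of all WT libraries. The axis label names the same mating type, but that mean was taken over both mating types. Points are libraries, their shape is the replicate number, and bars are group means. All tup1 libraries lie below all WT libraries on the left, and on the right tup1 MATa replicate 1 lies closest to WT, at -0.09.

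Levels in WT MATa, per kilobase of coding sequence, spanned a wide range. RPP0, the stalk base, was highest at 5529 CPM per kb, followed by RPL5, which binds the 5S ribosomal RNA, at 4961 and RPS0B, a small-subunit protein, at 4491. RPL15B was lowest at 30.8, then RPL22B at 156 and RPS9A at 286. RPL41B, whose coding sequence is very short, was the next lowest after RPL15B and RPL22B before correction for length, with 90.7, 88.1 and 80.6 CPM in WT MATa.

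In MATa cells many ribosomal protein genes were modestly lower in tup1(S649F) than in WT. Of 137 members 63 fell and none rose in edgeR's quasi-likelihood test with Benjamini-Hochberg adjustment over all genes at 0.05, against 16.7% of all 5654 genes tested that fell and 24.7% that rose. At an unadjusted p below 0.05 a single member was higher, and DESeq2 called 71 lower and none higher. The median log2 fold change of the members was -0.25, and that of all genes was -0.01. The count depends on single libraries: leaving out tup1 MATa replicate 1 gave 102 lower and 2 higher, and it was 16 without tup1 MATa replicate 2, 22 without WT MATa replicate 1 and 35 without WT MATa replicate 3.

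The largest fall in MATa was that of RPS24A, a small-subunit protein, with 403, 385 and 373 CPM in WT and 324, 197 and 256 in tup1, a log2 fold change of -0.58 ± 0.13 (SE, adjusted p = 0.00324). RPS30B, which encodes another small-subunit protein, had 195, 178 and 175 CPM against 164, 89.8 and 115 and changed by -0.57 ± 0.19 (SE, adjusted p = 0.0335). RPL8A, a large-subunit protein, had 585, 556 and 604 CPM against 489, 349.9 and 371 and changed by -0.53 ± 0.10 (SE, adjusted p = 0.000216). In each of these genes all tup1 libraries lay below all WT libraries, with replicate 1 the highest of the tup1 libraries.

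RPL36A had 153, 134 and 135 CPM in WT MATa and 105, 83.7 and 105 in tup1, a change of -0.52 ± 0.09 (SE, adjusted p = 0.000196). RPS3, which lines the entry channel of the messenger RNA, had 1180.3, 1143 and 1159.8 CPM against 1086, 629 and 717 and changed by -0.52 ± 0.17 (SE, adjusted p = 0.0236). RPL39, at the wall of the exit tunnel of the nascent chain, had 275, 234 and 238 CPM against 193, 144 and 185 and changed by -0.51 ± 0.11 (SE, adjusted p = 0.000973). The groups did not overlap in any of the 3 genes, although RPS3 in tup1 replicate 1 was close to the lowest WT value. The call of RPS3 and that of RPS30B were lost when any one of the WT MATa libraries, tup1 MATa replicate 2 or tup1 MATa replicate 3 was left out, with adjusted p from 0.0554 to 0.12; RPS24A, RPL8A, RPL36A and RPL39 were called under every alternative run.

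In MATalpha cells 102 of 137 members were lower in tup1(S649F) and none was higher, against 31% and 32% of all genes, and the median log2 fold change was -0.41 against -0.03 for all genes. DESeq2 called 101 lower and none higher, and no member was higher at an unadjusted p below 0.05. No member fell by 2-fold. The count stayed between 82 and 111 when any single library was left out. The gap to the 63 members of MATa depends on tup1 MATa replicate 1: without it 102 members were lower in MATa and 111 in MATalpha, against 18.2% and 33.0% of all genes.

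RPL36A, a large-subunit protein, showed the largest fall in MATalpha: 149, 156 and 154 CPM in WT and 75.8, 86.1 and 99.4 in tup1, a log2 fold change of -0.81 ± 0.09 (SE, adjusted p = 6.87e-07). RPS27A, of the small subunit, had 261, 261 and 265 against 139, 153 and 176 CPM and changed by -0.75 ± 0.08 (SE, adjusted p = 2.93e-07). RPS26B, whose protein lies near the exit of the messenger RNA, had 525, 552 and 554 against 274, 319 and 379 and changed by -0.74 ± 0.09 (SE, adjusted p = 1.25e-06). In all of these the tup1 libraries lay well below the WT libraries, with no overlap.

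RPL31B, of the large subunit near the tunnel exit, had 318, 312 and 321 against 174, 195 and 203 CPM and changed by -0.73 ± 0.08 (SE, adjusted p = 1.75e-07). RPS7B, of the small subunit, had 428, 435 and 434 against 249, 282 and 281 and changed by -0.68 ± 0.07 (SE, adjusted p = 7.92e-08). RPL9A, of the large subunit, had 499.7, 509 and 492 against 259, 304 and 377 and changed by -0.67 ± 0.13 (SE, adjusted p = 0.000268). The groups did not overlap in these genes either, and these 6 calls held under every alternative run.

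No stalk gene was called, but in MATa this rests on tup1 MATa replicate 1. RPP0 had 5261, 5031 and 5284 CPM in WT MATa and 6458, 4643 and 4276 in tup1 MATa, 4239, 4456 and 4461 in WT MATalpha and 3862, 4819.8 and 4408 in tup1 MATalpha. The groups overlapped in both mating types, with log2 fold changes of -0.02 ± 0.13 and -0.01 ± 0.13 (SE). The acidic proteins RPP1A, RPP1B, RPP2A and RPP2B, which form the tip of the stalk, changed by -0.23 ± 0.14, -0.12 ± 0.19, -0.06 ± 0.13 and -0.31 ± 0.22 in MATa and by -0.13 ± 0.14, -0.01 ± 0.19, -0.12 ± 0.13 and -0.15 ± 0.22 in MATalpha. In each of them tup1 MATa replicate 1 was the highest of all 12 libraries. Without that library all 5 were called lower in MATa, with log2 fold changes of -0.21 (RPP0, adjusted p = 0.0314), -0.48 (RPP1A, adjusted p = 9.78e-06), -0.45 (RPP1B, adjusted p = 4.49e-05), -0.26 (RPP2A, adjusted p = 0.00793) and -0.71 (RPP2B, adjusted p = 4.32e-08) in edgeR's test, and none was called in MATalpha. With all libraries, a fall in MATa like the median of the members lies within 2 SE of none in each of the 5 genes. The difference between the stalk and the other classes was not tested.

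Calls were also counted within the other classes. Of the large subunit 37 of 76 members fell in MATa and 61 in MATalpha, and of the small subunit 26 and 41 of 56. Of the single-copy genes 9 and 14 of 19 fell, and of the paired genes 54 and 88 of 118. Of the 89 members with an intron in the coding sequence 44 and 72 fell, and of the 48 without one 19 and 30. Of the 54 with a Rap1 core 24 and 45 fell, and of the 83 without one 39 and 57. Of the 18 members with few unique windows 8 and 10 fell. Of all genes tested, 16.7% were called lower in MATa and 31% in MATalpha. These are counts, and no difference between classes was tested.

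The 2 mating types were compared in separate libraries. Across the 137 members the log2 fold changes had a Pearson r of 0.57 and a Spearman rho of 0.53, and 128 had the same sign. This correlation is across genes, which share libraries and are not independent replicates. 60 members were called lower in both mating types, 42 in MATalpha alone, 3 in MATa alone and 32 in neither. Of all genes 16.7% were called lower in MATa and 31% in MATalpha. Shared calls and shared signs were not counted over all genes, so these counts have no background. A call in one mating type alone is not by itself a difference between them.

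**Figure D2:**
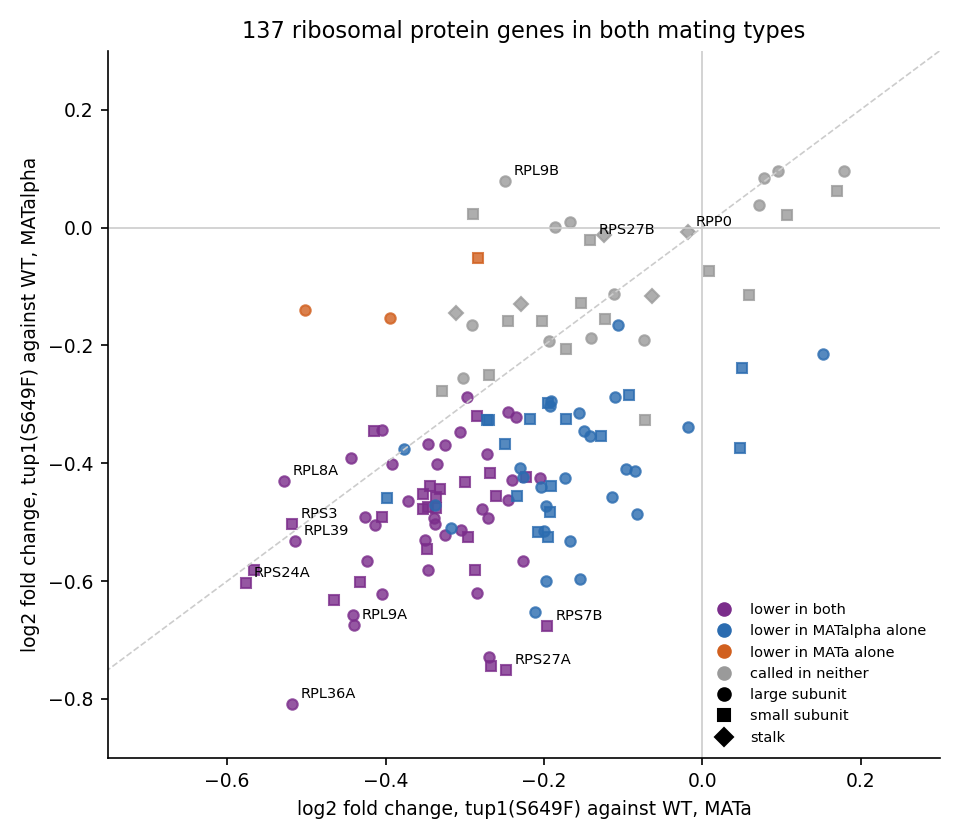
Log2 fold change of tup1(S649F) against WT for each of the 137 ribosomal protein genes, in MATa on the horizontal axis and in MATalpha on the vertical axis; colour shows in which mating types the member was called lower, shape shows its class, and the dashed line marks equal changes. 108 of the 137 members lie below the dashed line, a count that was not made over all genes, whose median interaction was -0.03. The outlying tup1 MATa replicate 1 enters every value on the horizontal axis. RPL36A is lowest at -0.81 in MATalpha, and RPP0 lies near 0 on both.

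The interaction tested that difference directly. 13 members had a more negative effect of tup1 in MATalpha than in MATa and none a more positive one, against 11.5% and 12.4% of all genes; the share of members is near the background on the lower side. At an unadjusted p below 0.05 no member was more positive, and DESeq2 called 14 and none. The median interaction was -0.12, against -0.03 for all genes. Without tup1 MATa replicate 1 the counts were 17 lower and 18 higher, and without tup1 MATalpha replicate 3 33 were lower; they were 8 without WT MATa replicate 2, WT MATalpha replicate 3 or tup1 MATalpha replicate 1, and 7 without WT MATalpha replicate 2.

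RPS27A had 265, 245 and 226 CPM in WT MATa and 225, 186 and 209 in tup1 MATa, and its interaction was -0.50 ± 0.12 (SE, adjusted p = 0.00456). RPS7B had 384, 393 and 415 and 362, 321 and 357 in these groups, with an interaction of -0.48 ± 0.10 (SE, adjusted p = 0.00145). RPS26B had 501, 453 and 468 and 383, 368 and 431, with an interaction of -0.48 ± 0.13 (SE, adjusted p = 0.0125). All 3 were also called lower in tup1 MATa, by -0.25 ± 0.08, -0.20 ± 0.07 and -0.27 ± 0.09 (SE), calls that were kept under 16, 15 and 15 of 19 alternatives.

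RPL31B, RPL40B and RPL22A followed, at -0.46 ± 0.11 (SE, adjusted p = 0.00544), -0.44 ± 0.12 (SE, adjusted p = 0.0143) and -0.44 ± 0.11 (SE, adjusted p = 0.00743). RPL40B, made as a fusion with ubiquitin, had 554, 493 and 511 and 482, 405 and 459 CPM in WT and tup1 MATa, and 557, 551 and 585 and 323, 340.0 and 413 in WT and tup1 MATalpha. RPL22A, of the large subunit, had 596, 534 and 564 and 496, 495 and 532 in MATa and 624, 693 and 665 and 402, 419 and 489 in MATalpha. In both genes the groups did not overlap in either mating type, and the call was in MATalpha.

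Mating type itself made no called difference in WT: of 137 members 0 were lower and 0 higher in MATalpha than in MATa, against 0.371% and 0.531% of all genes. At an unadjusted p below 0.05, 1 was lower and 16 were higher, and DESeq2 called 0 and 1. The setting changed this: in a fit of the WT libraries alone 40 members were lower and 30 higher, and without tup1 MATa replicate 1 in the shared fit the counts were 16 and 7. Without that replicate 3.88% of all genes were lower. The shares of all genes in the fit of the WT libraries alone are not given here, so its counts have no background. In tup1, 17 members were lower in MATalpha than in MATa and none higher, against 17.2% and 17.8% of all genes, a share near the background; DESeq2 called 18 and none. That count was 4 without tup1 MATalpha replicate 1, 33 without tup1 MATa replicate 2, 43 without tup1 MATalpha replicate 3, and 3 in a fit of the tup1 libraries alone; without tup1 MATa replicate 1, 6 members were higher. RPS27A, RPS22A, RPS7B and RPL8B differed most, by -0.41 ± 0.09, -0.37 ± 0.12, -0.36 ± 0.07 and -0.34 ± 0.10 (SE). Without tup1 MATa replicate 1 the value of RPS22A was -0.19 and its call was lost (adjusted p = 0.064 in edgeR's test). The calls of RPS22A and RPL8B were also lost without tup1 MATalpha replicate 1 (adjusted p = 0.106 and 0.0953) and in the fit of the tup1 libraries alone (adjusted p = 0.0956 and 0.103).

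The copies of a pair contribute unequally. In WT MATa the A copy held from 14.02% (RPS9) to 98.0% (RPL15) of the counts of its pair, with a median of 53.4%; it was the larger in 34 pairs and the smaller in 25. The same copy was the larger in all 12 libraries in 52 of 59 pairs. Among the extremes were RPS9, RPL36, RPS27 and RPL8 on the side of B, and RPL15, RPL22 and RPS14 on the side of A. RPS14A held 83.1, 83.8 and 82.9% of its pair in WT MATa and RPL22A 91.2, 90.1 and 90.8%.

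**Figure D3:**
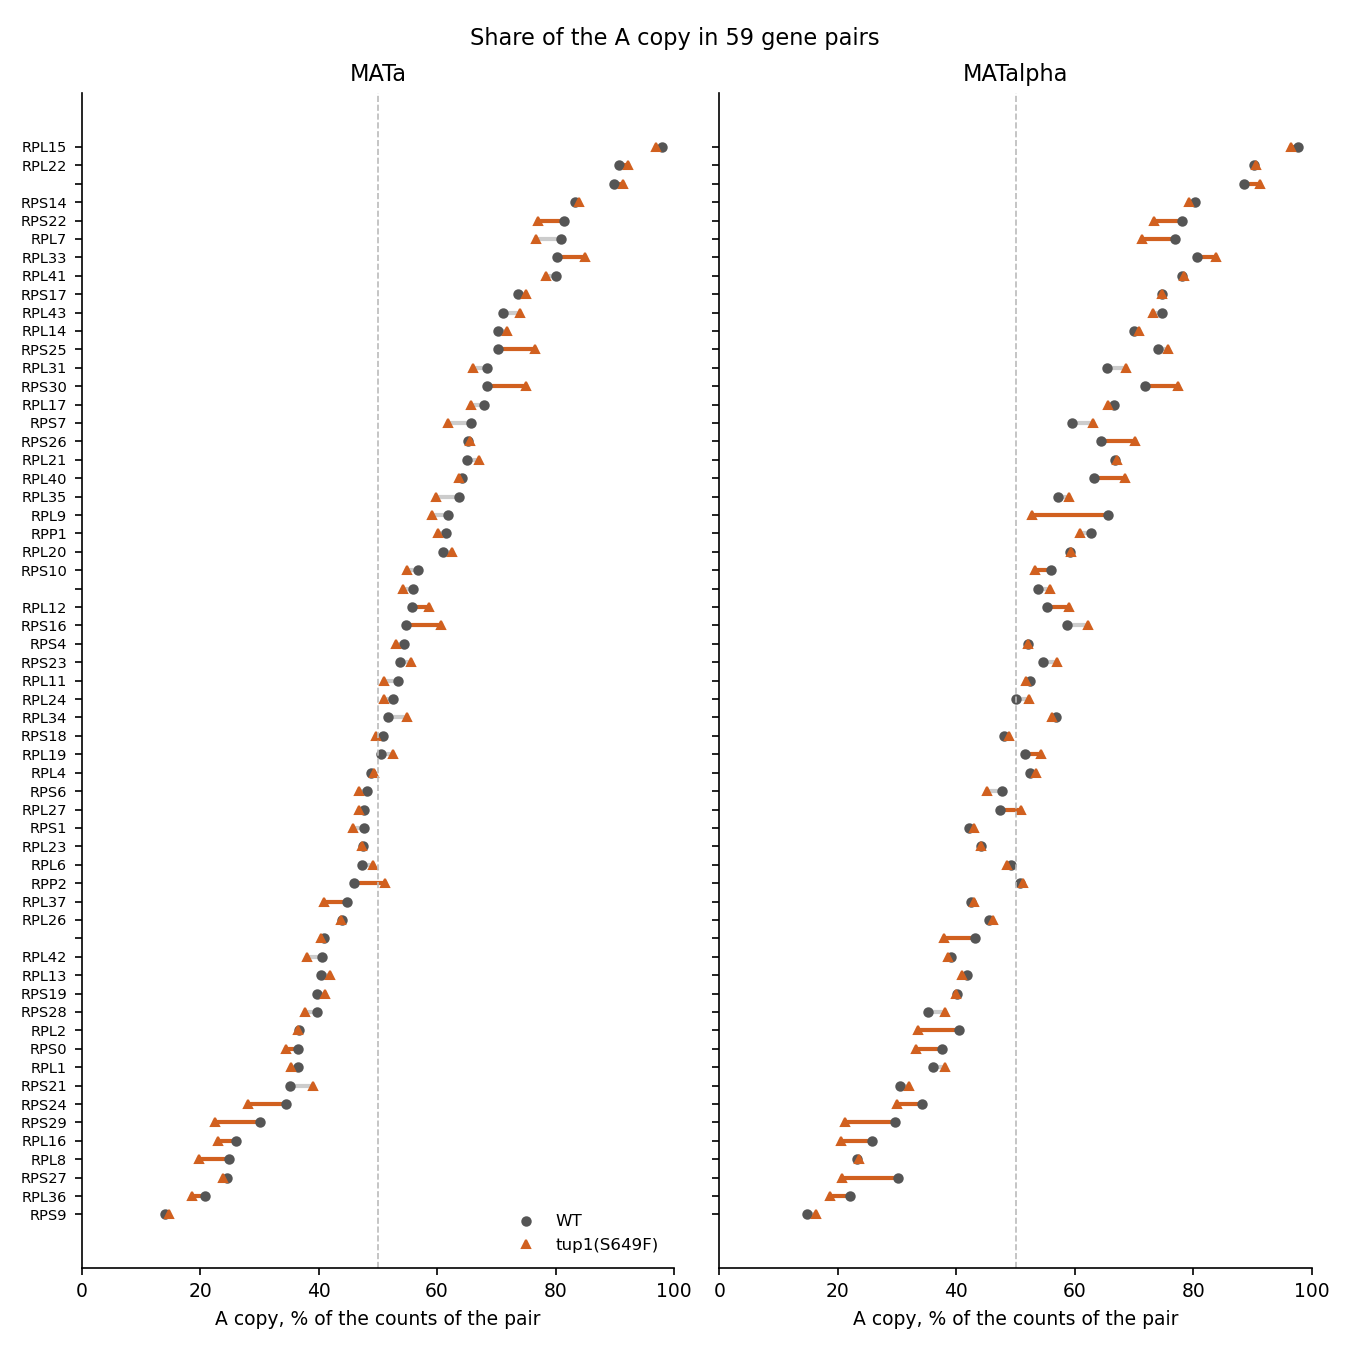
Share of the A copy in the counts of each of the 59 pairs, in % on the horizontal axis, as the mean of 3 libraries of WT (circles) and of tup1(S649F) (triangles), with pairs ordered by their share in WT MATa and not every pair labelled. Orange lines mark pairs whose ratio was called changed in the fit over 672 paralog pairs; the order of the pairs is nearly kept, with shares from 14.02% to 98.0%.

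Copies were then compared within each library, where scaling between libraries has no effect. The log2 ratio of A to B counts was called changed by limma in 13 of 59 pairs in MATa, in 18 in MATalpha and in 7 for the interaction, in the fit over the 61 pairs named A and B, of which 23%, 32.8% and 11.5% were called. That fit holds little else than ribosomal protein pairs, so errors and adjusted p-values below come from a fit over 672 paralog pairs of the whole genome, where 17, 21 and 8 pairs were called, against 53.6%, 65.8% and 29.6% of the 672 pairs. The share of ribosomal protein pairs with a changed ratio was thus below that of paralog pairs in general; the difference was not tested. Without tup1 MATa replicate 1 the 3 counts of the first fit were 34, 26 and 26, and edgeR's test of differential usage called 4, 6 and 0. The MATa count was 8 without WT MATa replicate 1 and 7 without WT MATa replicate 2, and the interaction count was 1 without WT MATalpha replicate 3 and 4 without tup1 MATa replicate 3.

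Both copies were lower in 13 pairs in MATa and in 37 in MATalpha, the A copy alone in 15 and 9, the B copy alone in 13 and 5, and neither in 18 and 8. Of the paired members 45.8% were called lower in MATa and 74.6% in MATalpha, against 16.7% and 31% of all genes. The same counts were not made for other paralog pairs. No pair had copies called in opposite directions. Among the pairs with a called ratio the copy with fewer counts in WT MATa lost share in 10 of 13 in MATa and in 14 of 18 in MATalpha. Over all 59 pairs, called or not, that copy lost share in 35 in either mating type. The smaller copy was taken from WT MATa for both mating types, although in a few near-equal pairs the other copy was the smaller in WT MATalpha. One copy alone has a Rap1 core in 28 pairs, and in these the copy with the core was the relatively lower one in 16 and the relatively higher one in 12, in MATa and in MATalpha alike.

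RPS29, a small-subunit protein with zinc-binding cysteines, shifted toward its B copy in both mating types. The A share was 31.5, 28.7 and 29.9% in WT MATa and 21.9, 20.9 and 24.7% in tup1 MATa, a change of the log2 ratio of -0.57 ± 0.11 (SE, adjusted p = 0.000431). In MATalpha it was 30.2, 28.9 and 29.9% and 19.1, 19.9 and 24.4%, a change of -0.66 ± 0.11 (SE, adjusted p = 8.11e-05). The groups did not overlap, and RPS29A changed on the log2 scale by -0.47 ± 0.11 and -0.63 ± 0.11 in the 2 mating types while RPS29B had 0.11 ± 0.11 and 0.02 ± 0.11.

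RPL15, of the large subunit, relies almost wholly on its A copy. RPL15A had 895, 882 and 882 CPM in WT MATalpha and 548, 574 and 751 in tup1, and RPL15B 20.7, 20.3 and 21.2 and 24.0, 20.6 and 22.2. The log2 ratio changed by -0.59 ± 0.18 (SE, adjusted p = 0.0156) in MATa and by -0.62 ± 0.18 (SE, adjusted p = 0.0091) in MATalpha. The A share of tup1 MATa replicate 1, 97.9%, was at the WT level, and the call in the fit over the 61 pairs was lost without any one WT MATa library, tup1 MATa replicate 2 or 3, WT MATalpha replicate 1 or 2, or tup1 MATalpha replicate 1.

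RPS30 and RPL33 shifted the other way, toward A. RPS30A held 68.5, 67.3 and 69.5% in WT MATa and 68.9, 78.9 and 77.4% in tup1, a change of the log2 ratio of 0.49 ± 0.15 (SE, adjusted p = 0.0122), with 0.43 ± 0.15 (SE, adjusted p = 0.0185) in MATalpha. RPL33A held 79.7, 79.9 and 81.1% and 83.2, 87.5 and 84.3% in MATa, a change of 0.49 ± 0.11 (SE, adjusted p = 0.00118), with 0.31 ± 0.11 (SE, adjusted p = 0.0176) in MATalpha. RPS30A in tup1 MATa replicate 1 lay within the WT range, whereas RPL33A did not overlap. The RPS30 calls in MATa and MATalpha were lost in edgeR's differential usage test (adjusted p = 0.163 and 0.137). That of RPL33 in MATalpha was lost there too (adjusted p = 0.125). In the fit over the 61 pairs the RPS30 call was lost in MATa without WT replicate 1 or 2 or tup1 replicate 2 or 3, and in MATalpha without any library except tup1 replicate 2, while that of RPL33 was lost in MATalpha alone, without any library except tup1 replicate 3.

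RPL16 and RPS22 were also called in both mating types in both fits. RPL16A held 25.8, 26.2 and 25.3% in WT MATalpha and 19.9, 20.2 and 21.2% in tup1, with log2 ratio changes of -0.23 ± 0.06 (SE, adjusted p = 0.00384) in MATa and -0.43 ± 0.06 (SE, adjusted p = 1.16e-05) in MATalpha. In the same groups RPS22A held 78.0, 78.8 and 77.4% and 71.9, 73.3 and 75.1%, with changes of -0.38 ± 0.08 (SE, adjusted p = 0.00108) and -0.36 ± 0.08 (SE, adjusted p = 0.00112). The 7 pairs called in both mating types in both fits changed in the same direction in both mating types, and across all 59 pairs the changes had a Pearson r of 0.56 and a Spearman rho of 0.45, with 35 of the same sign. By the fit over 672 paralog pairs alone, 11 pairs were called in both mating types, RPS24 among them, and all 11 kept their direction.

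**Figure D4:**
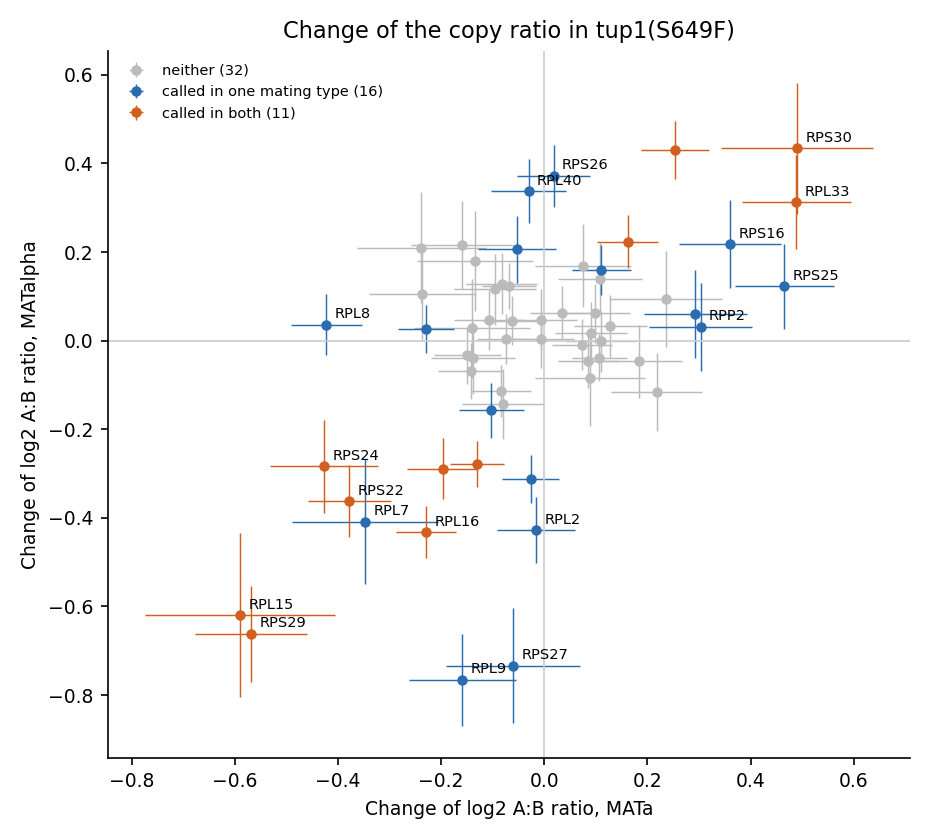
Change of the log2 ratio of A to B counts in tup1(S649F) against WT for the 59 pairs, in MATa on the horizontal and in MATalpha on the vertical axis; bars are SE, and colour marks pairs called in both mating types, in one or in neither, in the fit over 672 paralog pairs. RPS29 and RPL15 lie at the lower left, RPS30 and RPL33 at the upper right, and RPL9 and RPS27 lie low in MATalpha and near 0 in MATa.

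RPS25, RPS24 and RPL8 had the largest remaining changes in MATa, by 0.47 ± 0.10 (SE, adjusted p = 0.00076), -0.43 ± 0.11 (SE, adjusted p = 0.00323) and -0.42 ± 0.07 (SE, adjusted p = 9.81e-05). RPS25A held 70.3, 70.2 and 70.4% in WT MATa and 72.7, 78.6 and 78.1% in tup1 MATa, and RPS24A 34.8, 35.4 and 33.1% and 30.0, 24.8 and 29.6%, both without overlap. RPS24 was also called in MATalpha in this fit by limma's test, at -0.28 ± 0.11 (SE, adjusted p = 0.0285). RPS25 was not, at 0.12 ± 0.10 (SE, adjusted p = 0.277). RPL8A held 24.4, 24.6 and 25.6% in WT MATa and 21.1, 19.5 and 18.9% in tup1 MATa, without overlap. In MATalpha its share was 23.2, 23.4 and 22.8% and 25.4, 22.9 and 22.6%, with overlap, and the interaction was 0.46 ± 0.10 (SE, adjusted p = 0.0027).

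RPL9, RPS27 and RPL2 shifted toward B in MATalpha. RPL9A held 65.7, 65.5 and 65.5% in WT MATalpha and 51.1, 50.4 and 57.0% in tup1, a change of -0.77 ± 0.10 (SE, adjusted p = 1.33e-05), with -0.16 ± 0.10 (SE, adjusted p = 0.215) in MATa and an interaction of -0.61 ± 0.15 (SE, adjusted p = 0.00657). RPS27A held 31.3, 28.8 and 30.4% and 20.6, 18.9 and 22.3%, a change of -0.73 ± 0.13 (SE, adjusted p = 0.000172), with -0.06 ± 0.13 (SE, adjusted p = 0.719) in MATa and an interaction of -0.67 ± 0.18 (SE, adjusted p = 0.0127). RPL2A, whose protein lies near the peptidyl transferase centre, held 41.0, 40.2 and 40.1% and 33.0, 33.0 and 34.7%, a change of -0.43 ± 0.08 (SE, adjusted p = 0.000159), with -0.02 ± 0.08 (SE, adjusted p = 0.874) in MATa and an interaction of -0.41 ± 0.11 (SE, adjusted p = 0.00954). These interaction calls were also made in the fit over the 61 pairs, against which the alternatives were set. From there the call of RPS27 was kept under 8 of 17 alternatives, those of RPL9 and RPL2 under 15 and that of RPL8 under 16. Each was lost in edgeR's differential usage test, with adjusted p of 0.455 (RPS27), 0.793 (RPL9), 0.85 (RPL2) and 0.793 (RPL8). In the fit over the 61 pairs RPL9 and RPL2 also lost the interaction call without WT MATalpha replicate 3 (adjusted p = 0.0527 in limma's test for each). The MATalpha call of RPL2, unlike those of RPL9 and RPS27, was lost in edgeR's differential usage test (adjusted p = 0.137). In MATa the shares of RPL9A, RPS27A and RPL2A in tup1 replicate 1, 55.5%, 19.3% and 33.1%, were the lowest of that group.

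**Figure D5:**
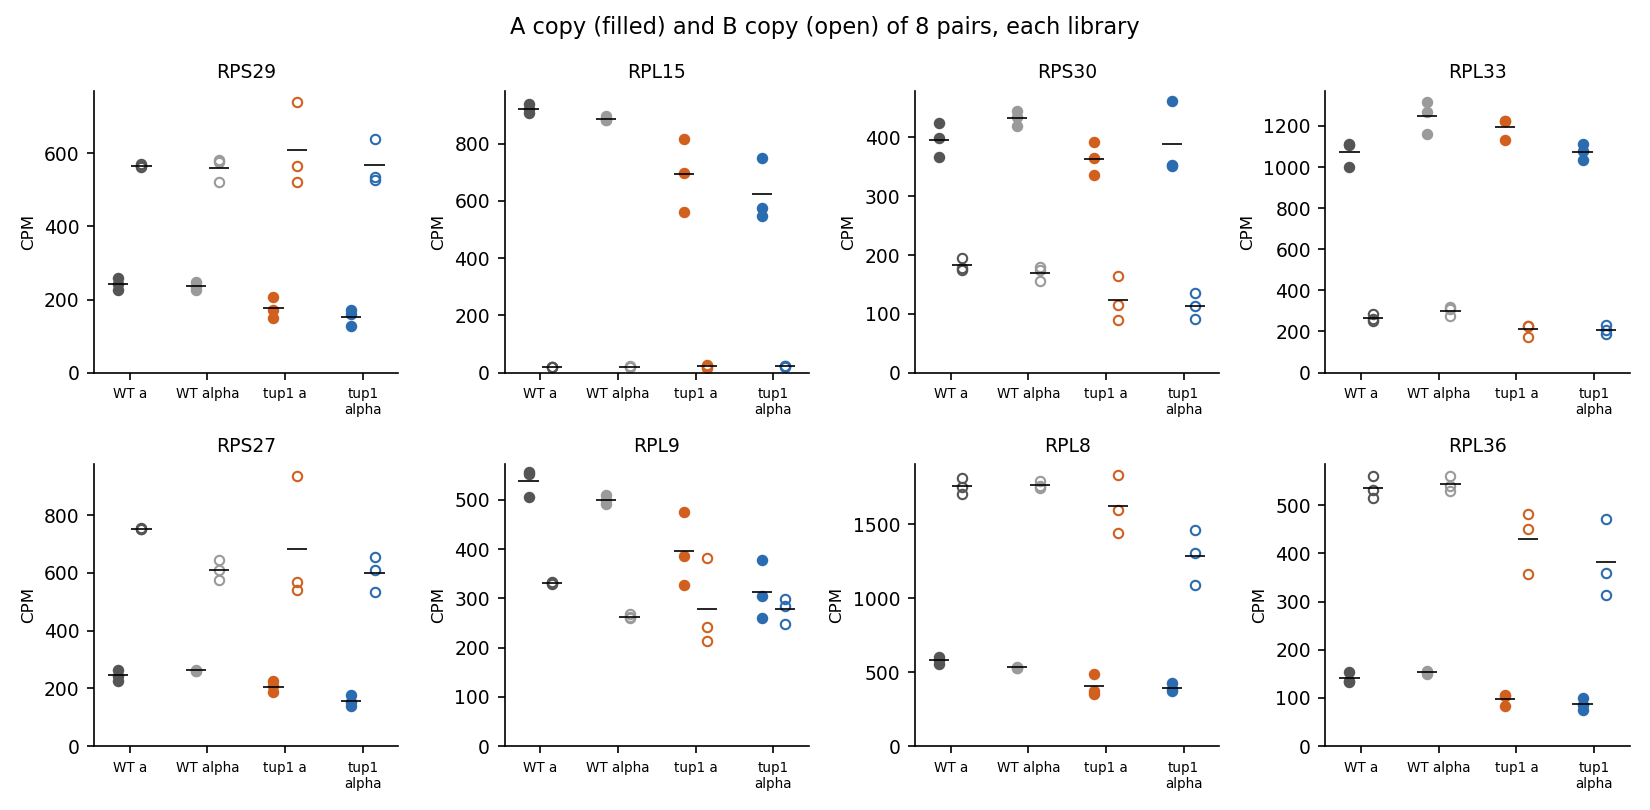
CPM of the A copy (filled) and the B copy (open) of 8 pairs in each of the 12 libraries, with bars at the group means and each axis starting at 0. In RPS29 the A copy falls in tup1 while the B copy stays near its WT level, in RPL15 the B copy is near the floor throughout, and in RPL36 both copies are lower.

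Other genes of the pathway were counted in the same fit. The shares of all genes to read these counts against were 16.7% lower and 24.7% higher in MATa, and 31% lower and 32% higher in MATalpha. Of 27 regulators of ribosomal protein genes 3 fell and 9 rose in MATa and 14 fell and 7 rose in MATalpha, of which the MATa counts and the 7 are near those shares. CRF1, a corepressor of these genes, rose by 1.35 ± 0.33 (SE, adjusted p = 0.00255) and 1.34 ± 0.34 (SE, adjusted p = 0.00207), and DOT6, a repressor of ribosome biogenesis genes, by 0.75 ± 0.08 (SE, adjusted p = 1.64e-07) in MATa. RPD3, a histone deacetylase, and TOR1, a growth-controlling kinase, changed by -0.31 ± 0.08 (SE, adjusted p = 0.00455) and -0.21 ± 0.06 (SE, adjusted p = 0.00557) in MATa. YAK1, a kinase that opposes protein kinase A, rose by 0.98 ± 0.08 (SE, adjusted p = 6.53e-09) in MATalpha. REB1 and HMO1, DNA-binding proteins found at promoters of ribosomal genes, changed by -0.86 ± 0.07 (SE, adjusted p = 1.43e-09) and -0.77 ± 0.06 (SE, adjusted p = 2.82e-09) in MATalpha, and RAP1 by -0.04 ± 0.07 (SE, adjusted p = 0.683) in MATa and -0.55 ± 0.07 (SE, adjusted p = 2.68e-06) in MATalpha.

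Of 17 chaperones of ribosomal proteins and nascent-chain factors 7 fell in MATa and 12 in MATalpha, and none rose. ACL4, the chaperone of Rpl4, changed by -0.51 ± 0.08 (SE, adjusted p = 5.71e-05) and -0.69 ± 0.09 (SE, adjusted p = 1.05e-06), and BCP1, the chaperone of Rpl23, by -0.48 ± 0.09 (SE, adjusted p = 0.000292) and -0.65 ± 0.10 (SE, adjusted p = 7.73e-06). Of 33 translation factors 18 fell and 1 rose in MATa, and 22 fell and 1 rose in MATalpha. EFB1, an elongation factor subunit, changed by -0.45 ± 0.09 (SE, adjusted p = 0.000278) in MATa, and TIF35, a subunit of initiation factor eIF3, by -0.39 ± 0.07 (SE, adjusted p = 7.64e-05) in MATa and -0.73 ± 0.07 (SE, adjusted p = 1.65e-08) in MATalpha. TIF4631, a form of eIF4G, changed by -0.77 ± 0.07 (SE, adjusted p = 7.54e-09) in MATalpha. TIF1, which encodes eIF4A, rose by 0.18 ± 0.07 (SE, adjusted p = 0.0479) in MATa and CAM1, an elongation factor subunit, by 0.32 ± 0.07 (SE, adjusted p = 0.000971) in MATalpha. Of 35 ribosome biogenesis factors 20 and 35 fell and none rose. CBF5, the pseudouridine synthase of ribosomal RNA, and NUG1, a GTPase of large-subunit assembly, changed by -0.36 ± 0.07 (SE, adjusted p = 0.000205) and -0.35 ± 0.07 (SE, adjusted p = 0.000381) in MATa, and RRP9 and UTP4, of the small-subunit processome, by -0.83 ± 0.08 (SE, adjusted p = 3.9e-08) and -0.82 ± 0.07 (SE, adjusted p = 7.18e-09) in MATalpha. Of 54 mitochondrial ribosomal protein genes, which serve a separate ribosome, 12 fell in MATa, near the share of all genes, and 30 in MATalpha, and none and 1 rose. The median log2 fold changes in MATalpha were -0.43 for the chaperones, -0.37 for the translation factors, -0.54 for the biogenesis factors and -0.31 for the mitochondrial genes, beside -0.41 for the cytosolic ribosomal protein genes and -0.03 for all genes.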

How the data were processed

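The authors deposited unnormalized read counts by gene for 12 libraries in a single table, and these were analysed unchanged. The builds sacCer3 and R64 and the tools featureCounts 1.6.3 (Subread), STAR 2.7.3 and cutadapt 2.8 come from the submitters' processing notes. The strand setting is not given in the sources used, nor is the treatment of multiply placed reads. The library kit was stranded, per the labels' protocols. Names, introns, promoters and sequences came from the R64 reference of RefSeq, the same build.

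Genes were tested with edgeR 4.0.16 in R 4.3.3: filterByExpr at a minimum count of 10, TMM, 1 robust quasi-likelihood fit of the 4 group means over all libraries (8 residual degrees of freedom), two-sided contrasts, and Benjamini-Hochberg adjustment over 5654 genes at 0.05. The SE of a log2 fold change was derived from its F statistic. Pair ratios were log2((A + 0.5)/(B + 0.5)) of raw counts, tested with limma 3.58.1 (trend, robust). The fit over 672 paralog pairs was added after the data were seen; pairs were reciprocal best matches of translated R64 coding sequences (blastp 2.17.0, E value at most 1e-20, at least 50% of each protein aligned). Both tests were tried on simulated data. DESeq2 1.42.0, other scalings, a replicate block and leaving out each library were the main alternatives. Members and gene lists were chosen with earlier results of these data known. Genes were named by size of change among calls (6 per direction, 4 between mating types), pairs likewise (8, and 4 for the interaction), with the stalk genes and the extremes of level and share; partner copies, RPS9A, RAP1 and STE2 were added as context. A few members that the rule names are not reported individually here.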

Additional observations from a re-analysis of the deposited data

Results flagged for a closer look

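The effect of tup1(S649F) differed between the mating types, by edgeR's test of the interaction, in 13 of 137 ribosomal protein genes, a share near the 11.5% of all genes, all with the more negative log2 fold change in MATalpha. The differences of the log2 fold changes, MATalpha minus MATa, were RPS27A (-0.50), RPS7B (-0.48), RPS26B (-0.48), RPL31B (-0.46), RPL40B (-0.44), RPL22A (-0.44), RPS25A (-0.42), RPL33A (-0.37), RPL6A (-0.36), RPL13A (-0.34), RPL27B (-0.34), RPL20A (-0.33) and RPL37B (-0.32). By limma's test in the fit over the 61 pairs named A and B, the shift of the A to B ratio differed in 7 pairs, among them, with differences on the log2 scale, RPS27 (-0.67), RPL9 (-0.61), RPL2 (-0.41), RPS26 (0.35), RPL40 (0.37) and RPL8 (0.46). The tup1 MATa replicate 1, which stood apart from the other replicates of its group, enters each of these values; without it 17 genes were lower and 18 higher for the interaction, and 26 pairs were called. Single outlying values within groups of 3 libraries were not tested.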

How the results depend on the processing

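Among the called members and pairs picked by the naming rule, the direction was kept under every alternative run. Partner copies, and members and pairs listed only among the flagged interaction results, were not followed individually in these runs. Upper-quartile scaling, which moved the median of all genes to -0.12 in MATa and -0.18 in MATalpha, gave 101 members lower in MATa, 21 for the interaction and 29 for MATalpha against MATa in tup1. A fit of only the groups compared gave 40 lower and 30 higher for MATalpha against MATa in WT and 3 lower in tup1, and DESeq2 gave 1 higher in WT. The shares of all genes called in the fits of only the groups compared are not given here. edgeR's differential usage test called 4, 6 and 0 pair ratios in MATa, MATalpha and the interaction. Over the 12 fits that each leave out 1 library, members called lower ran from 16 to 102 in MATa, 82 to 111 in MATalpha, 7 to 33 for the interaction, 0 to 16 for the mating types in WT and 4 to 43 in tup1; members called higher ran from 0 to 2, 0 to 0, 0 to 18, 0 to 7 and 0 to 6. Pairs called ran from 7 to 34, 13 to 26 and 1 to 26. The cause was not tested. With the replicate number as a block, 61, 99, 12, 0 and 14 members were lower and 12, 16 and 7 pairs were called. Deviations of same-numbered libraries from their group means correlated between -0.32 and 0.13. These values give no sign that the numbers pair the samples, but they cannot exclude it. Other scalings, no filter, a pseudocount of 5 and a minimum of 50 counts per copy left each count within 1.5 times. RPL15B had the fewest counts, 150.7 per library on average.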
